A study of Homo sapiens with 3 samples.

Results

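WDR5 and 9 partners of its histone methyltransferase complexes, ASH2L, RBBP5, DPY30, HCFC1, MEN1, CXXC1, PAXIP1, NCOA6 and PSIP1, were followed across 3 Affymetrix arrays. The cells were labelled LNCaP, an established prostate cancer line. The members were the probe sets annotated to exactly 1 of these gene symbols, 23 of the 49388 probe sets in the deposited table. A probe set is a group of short array probes that reports 1 brightness value, its intensity, for a transcript. The study asked which genes differ from the control when the long non-coding RNA HOXD-AS1, transcribed from the HOXD gene cluster, is silenced, and WDR5 is of interest because HOXD-AS1 was proposed to recruit it to target genes.

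There was 1 array for the control siRNA and 1 for each HOXD-AS1 siRNA, called siRNA 1 and siRNA 2. Every culture had serum-containing medium free of phenol red, 75 nM of its siRNA by lipid transfection, and 48 h before RNA was taken. The cell line label was LNCaP for all arrays, but the source names differed, LNCaP for the control, LNCaP-Bic for siRNA 1 and LNCaP-AI for siRNA 2, so an effect of the cells and an effect of the siRNA cannot be told apart. With 1 array per group no difference has a replicate check and no test was possible. Median intensity lay between 25.7 and 26.1 on the 3 arrays, and the sorted log2 values of any pair differed by at most 0.0980. The level of HOXD-AS1 itself was not analysed here.

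Methylation of lysine 4 on histone H3 (H3K4) marks active promoters and enhancers and is written by the KMT2 and SETD1 enzymes. These enzymes are weak alone and depend on a shared core of WDR5, RBBP5, ASH2L and DPY30, in which WDR5, a ring-shaped WD40-repeat protein, holds the enzyme and the other subunits together. Further partners set where the complexes act: menin (MEN1) and PSIP1 with KMT2A and KMT2B, CXXC1 with the SETD1 enzymes, PAXIP1 and NCOA6 with KMT2C and KMT2D, and HCFC1 with several of them.

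The siRNA sequences are shown because the labels describe their targets in different ways. Capitals mark the first 19 bases and lower case the last 2, and the labels do not say which strand is given.
control siRNA: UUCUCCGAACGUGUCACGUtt
HOXD-AS1 siRNA 1: GAAAGAAGGACCAAAGUAAuu
HOXD-AS1 siRNA 2: GCCCUUUCUGACCUGCUUAuu
The title and siRNA labels name HOXD-AS1 as the target, whereas a further label places the target points of siRNA 1 and siRNA 2 at positions 588 and 1290 of the WDR5 coding sequence. Whether either position lies within that coding sequence was not analysed here. A labelled inhibition rate, set to 1 for the control siRNA, was 0.23 for siRNA 1 and 0.25 for siRNA 2. Which transcript this rate refers to, and whether it is the level that remained, is not stated.

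WDR5 transcript was therefore examined first. Probe set 11718374_at gave 419.9 in control cells, 380.2 after siRNA 1 and 374 after siRNA 2. That is 90.5% of the control with siRNA 1 and 89.2% with siRNA 2. Probe set 11718375_x_at gave 445 in control cells, 351 after siRNA 1 and 407 after siRNA 2, which is 79.0% and 91.6% of the control. Both siRNA libraries read below the control in both probe sets, and in each of the 4 readings at least 79.0% of the control signal was present. None was near the labelled rates of 0.23 and 0.25 if these are read as the share of WDR5 mRNA that remained. On the log2 scale the differences from the control were -0.14 and -0.34 with siRNA 1 and -0.17 and -0.13 with siRNA 2.

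Differences of this size were common on these arrays. Values below the overall median intensity of 25.96 were raised to that floor, and probe sets above it on 1 array or more, 23896 of those with 1 symbol, were taken as measured. Among the measured probe sets whose mean log2 intensity lay within 0.5 of 11718374_at, 68.8% were at least as far from the control with siRNA 1 and 60.9% with siRNA 2. For 11718375_x_at the shares were 35.9% and 69.2%. In a bulk sample, fewer cells with a transcript and less of it per cell cannot be told apart. A further probe set that the annotation gives to WDR5 and WDR5CP together was not used.

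**Figure D1:**
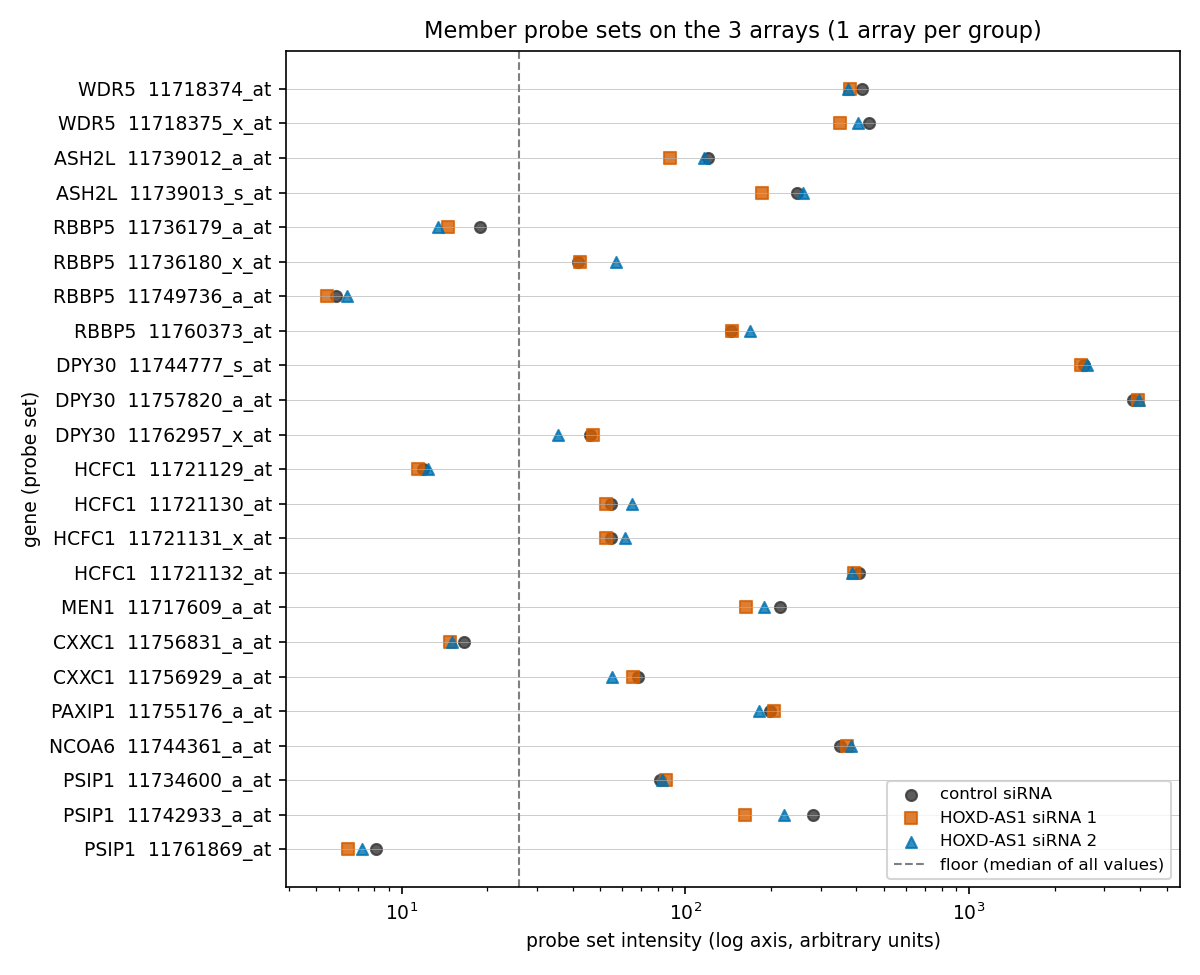
Intensity (log axis, arbitrary units) of each of the 23 member probe sets after control siRNA (circles), siRNA 1 (squares) and siRNA 2 (triangles), 1 array each, with the floor at 25.96 as a dashed line. The 18 measured probe sets lie above the floor on all 3 arrays and the other 5 below it on all 3, and the widest spread among the measured ones is that of PSIP1 11742933_a_at, from 162 to 281.

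The other core subunits did not share 1 pattern. ASH2L, the subunit that with DPY30 stimulates the methyltransferase, read low with siRNA 1 alone. Its probe set 11739013_s_at gave 246 in control cells, 185 after siRNA 1 and 259.7 after siRNA 2, and 11739012_a_at read 120.2, 88.5 and 117 in the same order. The siRNA 1 library was the lowest in both, by -0.41 and -0.44 on the log2 scale from the control, while siRNA 2 differed from the control by 0.08 and -0.04. Between the siRNA libraries, a comparison without the control array, ASH2L was higher with siRNA 2 by 0.49 and 0.40. Among probe sets of like intensity, 29.4% and 25.2% lay at least as far from the control with siRNA 1.

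RBBP5, which bridges WDR5 and ASH2L, had 4 probe sets, of which 2 were measured. Probe set 11760373_at gave 145 in control cells, 146 after siRNA 1 and 169 after siRNA 2, and 11736180_x_at read 41.7, 42.5 and 57.1. The control and siRNA 1 values were nearly equal and siRNA 2 was the highest in both, by 0.22 and 0.45 from the control. The other RBBP5 probe sets, 11736179_a_at and 11749736_a_at, read between 5.45 and 18.9 on all arrays, below the floor, and give no difference. DPY30, the smallest core subunit, was level in its brighter probe sets. Probe set 11757820_a_at read 3776, 3924 and 3974 in the control, siRNA 1 and siRNA 2 libraries and 11744777_s_at read 2531, 2481 and 2605, with log2 differences from the control between -0.03 and 0.07. The dimmer 11762957_x_at read 46.0, 47.1 and 35.4, a difference of 0.03 with siRNA 1 and -0.37 with siRNA 2, which the other DPY30 probe sets did not show.

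HCFC1, a scaffold that links promoter-bound factors to the H3K4 enzymes, was close to the control. Probe set 11721132_at gave 409.8 in control cells, 394 after siRNA 1 and 388 after siRNA 2, differences of -0.06 and -0.08. Probe sets 11721130_at and 11721131_x_at, designed on the same accession, gave nearly equal values on every array, so they are hardly separate readings. They read 54.7 and 54.6 in the control, 52.7 each with siRNA 1, and 64.9 and 61.2 with siRNA 2, the highest library in both (0.25 and 0.17 from the control). The remaining HCFC1 probe set, 11721129_at, read between 11.5 and 12.4, below the floor.

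PSIP1 and MEN1, whose products tether KMT2A to chromatin, had the lowest means of both differences by the brightest probe set of each member gene (-0.57 and -0.29). MEN1, known as an endocrine tumour suppressor gene and measured by 11717609_a_at alone, gave 216 in control cells, 164 after siRNA 1 and 189 after siRNA 2, differences of -0.40 and -0.19. Both siRNA libraries were below the control, and 31.5% and 56.7% of probe sets of like intensity lay at least as far from it. PSIP1, a chromatin reader also known as LEDGF, gave 2 unlike readings. Probe set 11742933_a_at gave 281 in control cells, 162 after siRNA 1 and 223 after siRNA 2, or 57.6% and 79.2% of the control. With siRNA 1 this is a log2 difference of -0.80, a distance reached by 6.77% of probe sets of like intensity, and with siRNA 2 one of -0.34, reached by 33.4%. Probe set 11734600_a_at read 81.6, 85.1 and 82.9 in the same order, differences of 0.06 and 0.02, so the arrays could hardly be told apart by it. The readings differ by 0.86 with siRNA 1, and 4.02% of the 6263 genes with several measured probe sets differed as much among theirs. PSIP1 is known to give transcripts of different length, and which of them each probe set detects was not analysed here. The last PSIP1 probe set, 11761869_at, read between 6.44 and 8.14, below the floor.

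Of the subunits particular to 1 kind of complex, CXXC1, which binds unmethylated CpG sites and brings the SETD1 enzymes there, read 68.2, 65.2 and 55.05 in the control, siRNA 1 and siRNA 2 libraries by 11756929_a_at. The siRNA 2 library was the lowest, by -0.31 from the control, against -0.06 with siRNA 1, and 11756831_a_at was below the floor on all arrays (14.8 to 16.5). PAXIP1, a BRCT-domain protein of the KMT2C and KMT2D complexes, gave 199 in control cells, 205 after siRNA 1 and 181 after siRNA 2 (0.04 and -0.13). NCOA6, a nuclear receptor coactivator of the same complexes, read 350.5, 371 and 384 (0.08 and 0.13). The largest of these differences, that of CXXC1 with siRNA 2, was 1.24-fold.

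Over all members, 1 of 18 measured probe sets differed from the control by 1.5-fold or more with siRNA 1, the PSIP1 probe set 11742933_a_at, beside 12.2% of all measured probe sets. With siRNA 2 it was 0 of 18, beside 9.2%. No member probe set reached 2-fold with siRNA 1, where 2.68% of all measured probe sets did, with siRNA 2 (1.34%) or between the siRNA libraries (2.17%). Between the siRNA libraries 0 of 18 reached 1.5-fold, beside 11.1%. Both siRNA libraries were below the control in 7 probe sets and above it in 5, and in 6 they lay on opposite sides (7, 4 and 7 after quantile normalization). Over all measured probe sets these shares were 33.7%, 31.8% and 30.4%. The median member probe set differed by -0.05 with siRNA 1 and -0.01 with siRNA 2, where that of all measured probe sets was 0.00 in each. The ratio of the highest to the lowest array had a median of 1.199 over the members (1.04 to 1.74) and of 1.27 over all measured probe sets. The siRNA 1 library was the lowest array in 8 of the 18 and the highest in 3, where it was the lowest in 34.7% and the highest in 35.1% of all measured probe sets.

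**Figure D2:**
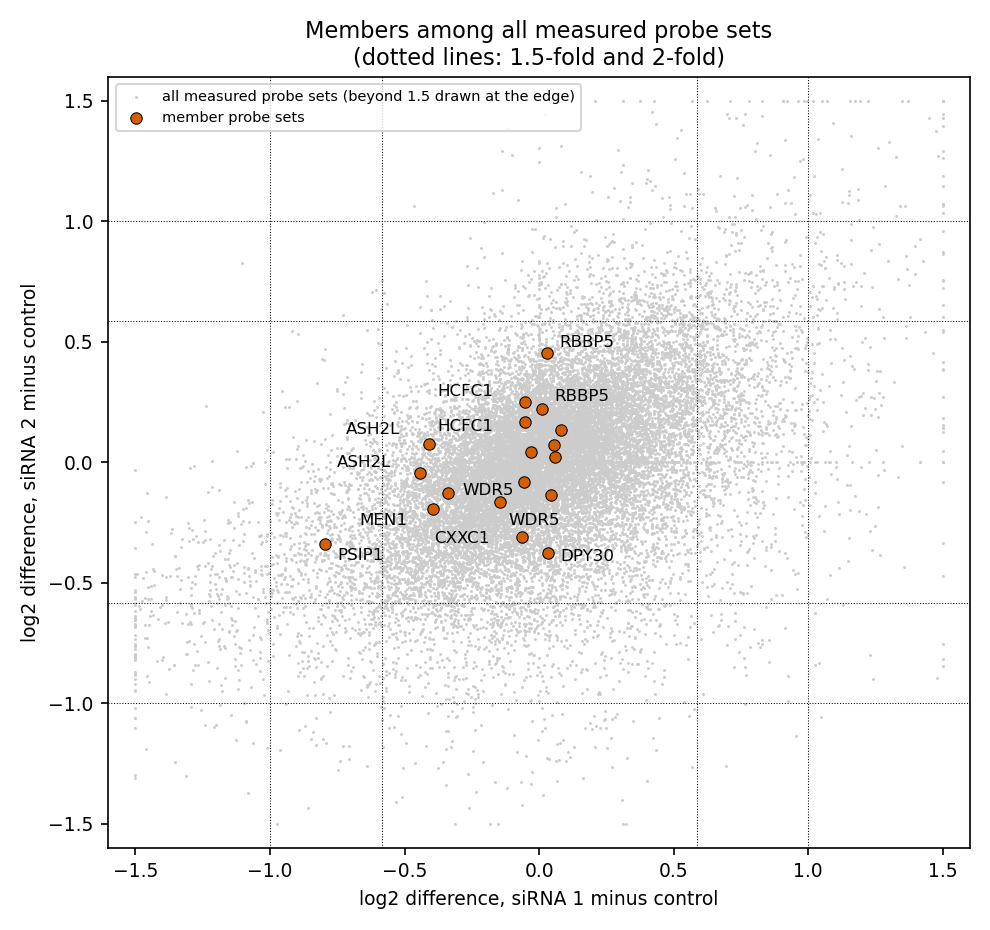
Log2 difference from the control with siRNA 1 (horizontal) and siRNA 2 (vertical) for the 18 measured member probe sets (large points, those away from the centre named) among all 23896 measured probe sets (grey), which share the control array on both axes. The PSIP1 probe set at -0.80 and -0.34 is the one member past a 1.5-fold line, and both WDR5 points lie below 0 on both axes.

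The repeated probe sets of a gene show how far readings of 1 gene differ within these arrays. They read the same RNA on the same array, so they are not replicates of a library and do not measure variation between cultures. Among the 6 members with at least 2 measured probe sets, all probe sets of the gene had the same sign in 4 with siRNA 1 (WDR5, ASH2L, RBBP5 and HCFC1) and in 2 with siRNA 2 (WDR5 and RBBP5). After quantile normalization it was 3 with siRNA 1, without RBBP5, and 2 with siRNA 2. Over all 6263 genes with at least 2 measured probe sets the shares were 63.9% and 62.8%. The range among the probe sets of a gene had a median of 0.24 in each comparison over all genes. The WDR5 probe sets differed from each other by 0.20 with siRNA 1, where the WDR5 differences from the control were -0.14 and -0.34, and by 0.04 with siRNA 2, where they were -0.17 and -0.13. All 4 readings had the same sign, but both WDR5 probe sets were designed on the same accession, as were both of ASH2L, and may not be separate readings. The 2 comparisons share the control array, so their common sign is not independent.

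With every gene represented by its brightest probe set, 11286 genes were measured, and 331 other genes had a pair of differences within 0.1 (Euclidean distance on the log2 scale, from 3 arrays) of the WDR5 pair of -0.34 and -0.13. The nearest were TTI2, PSMC3 and HENMT1, all at -0.35 and -0.13.

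The enzymes that WDR5 serves and the other complexes that contain it were described by the same measure. Of the 6 H3K4 methyltransferase genes, all measured, 3 exceeded the control with each siRNA and 3 went opposite ways, with medians of 0.16 with siRNA 1 and 0.18 with siRNA 2. The median over all measured genes was 0.00 and 0.01. KMT2C was the highest, at 129 in control cells, 204 after siRNA 1 and 189 after siRNA 2, and its 4 measured probe sets were all above the control, by 0.37 to 0.67 and 0.33 to 0.66. KMT2A, named here after its values were seen, was above the control in all 7 measured probe sets, by 0.17 to 0.67 and 0.06 to 0.31. KMT2B was the lowest, at 0.04 and -0.08. With siRNA 1, KMT2C alone of these enzymes was past 1.5-fold, as were 13.1% of all measured genes. With siRNA 2 none was, beside 9.42%. The 10 members by the same measure had medians of -0.06 and -0.10, with 5 lower in both libraries, 3 higher in both and 2 opposite. Over all measured genes 32.1% were lower in both, 34.3% higher in both and 30.6% opposite. These shares also stand beside the counts of the lists below.

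The 7 other genes of these complexes included TASP1, the protease that cleaves KMT2A. Of them 2 were higher in both libraries, 1 lower in both and 4 opposite. Past 1.5-fold were 0 with either siRNA, beside 13.1% of all measured genes with siRNA 1 and 9.42% with siRNA 2. The medians were 0.12 and -0.06. The H3K27 demethylase gene KDM6A, a subunit of the KMT2C and KMT2D complexes, was the highest (0.36 and 0.10) and PAGR1, a partner of PAXIP1, the lowest (-0.26 and -0.08). These calls rest on the brightest probe set. The other PAGR1 probe set differed by -0.22 and 0.09. WDR82, opposite by its brightest probe set, was lower in both libraries in 4 of its 5 measured probe sets.

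The NSL histone acetyltransferase complex also contains WDR5 and HCFC1. Of its 7 other genes 2 were higher in both libraries, 2 lower in both and 2 opposite, while KAT8, its catalytic subunit, had 1 difference of 0. Past 1.5-fold were 0 of the 7, beside 13.1% of all measured genes with siRNA 1 and 9.42% with siRNA 2. The medians were -0.08 and 0.22. PHF20 was the highest (0.19 and 0.23) and MCRS1 the lowest (-0.35 in each). In the ATAC acetyltransferase complex, 9 of 10 listed genes were measured. By the brightest probe set all 9 read below the control with siRNA 2 (8 after quantile normalization), the lowest at -0.48, and 4 did with siRNA 1. Below the control over all 11286 measured genes were 5297 with siRNA 2 and 5420 with siRNA 1. With siRNA 2 MBIP was lower by -0.0008 alone, and other probe sets of DR1 and KAT14 were above the control, by up to 0.23 and by 0.02. The 8 measured ATAC genes other than ZZZ3 (-0.48) were within 1.2-fold of the control with siRNA 2, as were 61.2% of all measured genes. TADA3 was the lowest over both (-0.76 and -0.04), the 1 ATAC gene past 1.5-fold with siRNA 1, and its 4 other probe sets ranged from -0.81 to 0.64 with siRNA 1. KAT2B was the highest (0.24 and -0.05).

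Of 6 genes for removal of H3K4 methylation, the demethylases and their cofactor RCOR1, 2 were higher in both libraries, 1 lower in both and 3 opposite. KDM5A was the highest, at 255 in control cells, 363 after siRNA 1 and 446 after siRNA 2 (0.51 and 0.81). All 5 of its measured probe sets were above the control, by 0.51 to 0.77 and 0.56 to 0.81. KDM1B was the lowest, at 0.16 with siRNA 1 and -0.79 with siRNA 2. The list medians were 0.11 and -0.01. Past 1.5-fold were 1 gene with siRNA 1, KDM5B (0.69), and 2 with siRNA 2, KDM5A and KDM1B, beside 13.1% and 9.42% of all measured genes. By the brightest probe set, no gene of these complex and enzyme lists was past 1.5-fold (0.585 on the log2 scale) in the same direction with both siRNAs. The other measured probe sets of KDM5A ranged from 0.56 to 0.77 with siRNA 1 and from 0.56 to 0.79 with siRNA 2. Those of DR1, an ATAC gene, ranged from -0.60 to 0.10 and from -0.60 to 0.23. The lowest DR1 difference was the same value with each siRNA, -0.601, past 1.5-fold in both. Equal values arise where 1 probe set is raised to the floor in both siRNA libraries, which was not checked here. Whether the same KDM5A probe set was past 1.5-fold with both siRNAs was not analysed here.

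**Figure D3:**
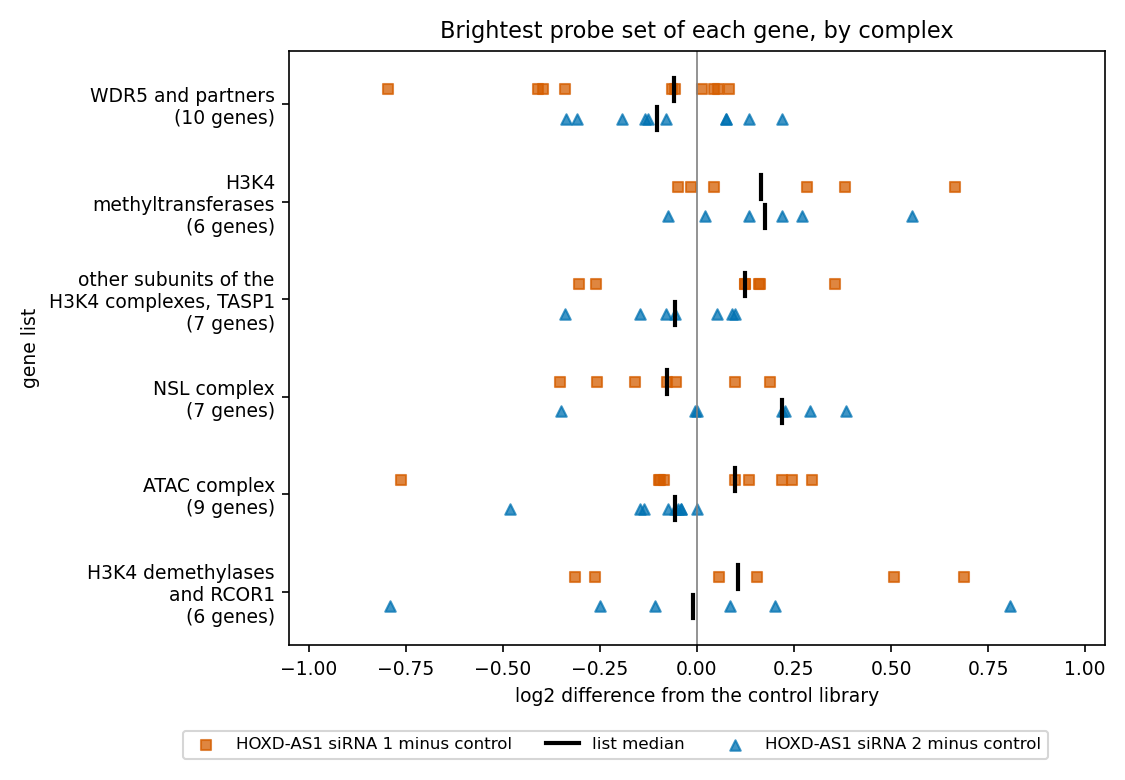
Log2 difference from the control with siRNA 1 (squares) and siRNA 2 (triangles) for the brightest probe set of each measured gene, in 6 lists, with list medians as black bars. The 10 genes of WDR5 and its partners have medians of -0.06 and -0.10, the 6 methyltransferases of 0.16 and 0.18.

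RefSeq promoter sequences (GRCh38.p14) were matched for 5 of the 10 genes, WDR5, RBBP5, MEN1, CXXC1 and PSIP1, with 10 annotated start sites. ASH2L, DPY30, HCFC1, PAXIP1 and NCOA6 had no entry in the table. The 250 bases before the outermost start of WDR5, the gene the labels name, and of PSIP1, the gene with the largest member difference, are shown with CpG dinucleotides in capitals.
WDR5, chr9:134134949-134135198, plus strand: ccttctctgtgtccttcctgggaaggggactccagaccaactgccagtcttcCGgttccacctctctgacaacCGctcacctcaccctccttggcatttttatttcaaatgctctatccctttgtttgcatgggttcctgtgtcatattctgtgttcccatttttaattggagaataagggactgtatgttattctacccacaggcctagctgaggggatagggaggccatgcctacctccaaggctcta
PSIP1, chr9:15510971-15511220, minus strand: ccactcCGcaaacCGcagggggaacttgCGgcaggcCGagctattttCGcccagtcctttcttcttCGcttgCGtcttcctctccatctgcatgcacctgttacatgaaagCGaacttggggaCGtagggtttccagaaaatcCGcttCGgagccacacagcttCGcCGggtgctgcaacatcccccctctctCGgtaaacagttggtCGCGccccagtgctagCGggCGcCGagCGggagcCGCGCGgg
The windows of the 4 WDR5 starts held 2, 9, 23 and 39 CpG dinucleotides from the outermost inwards, and those of the 2 PSIP1 starts 23 and 21. Over the 10 member windows the median was 19.5, and over all 35116 windows it was 11. On either strand, CCAAT was found in 3 of the 10 windows (32.0% of all windows), CACGTG in 1 (6.34%), CCGGAAG in 1 (8.52%) and TATAAA in 0 (10.7%). The 2 MEN1 windows, both with CCAAT, overlap and may hold the same site. The 2 outermost WDR5 windows also overlap, so the 10 windows are not separate units. The CACGTG and CCGGAAG matches were both at WDR5. These matches describe the sequence alone, as no binding was measured.

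The cells' identity was checked against marker lists. All 6 luminal prostate markers on the array, KLK3, KLK2, TMPRSS2, HOXB13, KRT8 and KRT18, were above the floor in every library (3 further listed markers were not analysed here), with summed intensities of 13165, 13866 and 11477 in the control, siRNA 1 and siRNA 2 libraries. By the brightest probe set KLK2 read 5176, 4845 and 3230 in the same order (-0.10 and -0.68), past 1.5-fold with siRNA 2. KLK3 was also lower with both siRNAs (-0.16 and -0.43), while TMPRSS2, HOXB13 and KRT8 were higher with both. The 3 other measured HOXB13 probe sets were all below the control with siRNA 2 (-0.46 to -0.20). Those of TMPRSS2 ranged from -0.19 to 0.19 with siRNA 2, and those of KRT8 from -0.15 to 0.29 with siRNA 1. The 11 other KLK2 probe sets ranged from -0.48 to 0.43 with siRNA 1 and from -1.27 to -0.20 with siRNA 2. Of 4 basal markers 2 were above the floor in each library (summed 126, 134 and 145), and of 4 leukocyte markers 0 were. Of 6 stromal markers 3 were above it in the control and 4 with each siRNA (summed 767, 755 and 985, most of it vimentin, VIM). ACTA2, which encodes smooth muscle actin, read 41.7 in the control, 92.9 after siRNA 1 and 150 after siRNA 2, log2 differences of 1.16 and 1.85, by the 1 of its 3 probe sets that was measured. It was the 1 gene of the marker lists past 1.5-fold in the same direction with both siRNAs. The collagen gene COL3A1 read 17.9, 28.4 and 50.4 in the same order, and its control value is below the floor, so the differences of 0.13 and 0.96 were taken from the floor. The part of these differences in the members' values was not tested.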

How the data were processed

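RNA from 3 LNCaP samples, 1 per group, was amplified to biotin-tagged cRNA and hybridised to Affymetrix arrays, per the labels' protocols. The authors deposited 1 table of linear intensities, a column per array. GCOS 1.4 was used, per the submitters' processing notes, while background correction, summarisation and normalization are not given in the sources used here. If the arrays were scaled alike, a shift shared by most transcripts would not be seen. Groups came from the sample titles.

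Symbols came from the platform annotation. Of 44988 probe sets with 1 gene, 44961 matched RefSeq by gene identifier and 0 symbols changed, 1831 carried several genes and 2569 none, and these were not named. Intensities below the floor (the median of all values) were raised to it, log2 was taken and arrays were subtracted, with Python 3.11.15, numpy 2.4.6 and pandas 2.3.3. The calculation was tested on simulated data. Counts at 1.5-fold and 2-fold are past a fold, not a test. The genes named are all members and the highest and lowest gene of each other pathway list by the mean of both differences. Also named are any whose brightest probe set was past 1.5-fold in the same direction in both libraries, and the 3 genes nearest to WDR5. Genes named as the ones past 1.5-fold with 1 siRNA, ZZZ3, WDR82, DR1, KAT14 and MBIP were chosen after their values were seen. So were the stromal markers other than ACTA2 and the luminal markers given with values. Members and lists were chosen with earlier results of these data known. The number of arrays limits the precision.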

Additional observations from a re-analysis of the deposited data

How the results depend on the processing

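Quantile normalization, other floors (the 25th or 75th percentile of all values, or none), the mean over the probe sets of a gene and the use of only plain probe sets (no letter before the _at of the identifier) were tried. No member probe set difference moved by 0.1 or more on the log2 scale under quantile normalization (the largest shift was 0.054) or under another floor, where the 75th percentile left fewer probe sets. The measured member probe sets lay above the main floor on all arrays, so a lower floor or none could not change them. The sorted values of the arrays were already close, so quantile normalization could shift them little. Quantile normalization changed the sign of 3 of 54 differences, none of them over 0.037 in size and 1 of them that of RBBP5 11760373_at with siRNA 1 (0.01 to -0.0017), and of none of the WDR5 differences from the control. Of 92 alternative values of the counts and list medians 86 kept to within 1.5 times or 0.1 of the value given. With only plain probe sets, which left out the PSIP1 probe set, the count past 1.5-fold with siRNA 1 was 0, the siRNA 1 medians were 0.36 for 4 methyltransferases, 0.20 for 2 NSL genes and -0.29 for 2 demethylase genes, and the siRNA 2 median was -0.34 for 3 other genes of the H3K4 complexes. With the floor at the 75th percentile the siRNA 1 median of 3 methyltransferases was 0.38. These settings tested fewer genes. The sign of the NSL and demethylase medians with siRNA 1 thus turned with plain probe sets, and the NSL median was 0.02 with averaged probe sets. No array could be left out, and no paired analysis was possible because each group held 1 array. Signal near the floor limits RBBP5, HCFC1, CXXC1 and PSIP1, each with at least 1 probe set below it on all arrays.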
